A study of Mus musculus with 20 samples.

Results

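The 9 genes described here encode chemokine receptors and one of their ligands: the receptors Ccr1, Ccr2, Cx3cr1, Cxcr3, Cxcr4 and Cxcr6, the ligand Cx3cl1 (fractalkine), and the atypical receptors Ccrl1 (now Ackr4) and Ackr3. Their probes were taken by name from the gene names and accessions of the array files, where 27962 distinct gene names stand. Of the 41174 probes on the array, 14 read them. The genes themselves were chosen with earlier results of these data known. Ackr3 carries the older name Cmkor1 in the files. Ccr2, Ccrl1, Cx3cl1, Cx3cr1 and Cxcr4 were each read by a pair of probes, called brighter and dimmer below by their mean signal, and the other genes by 1 probe.

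Chemokines are small secreted proteins that direct the movement of leukocytes, and their receptors are G protein-coupled receptors on the cells that respond. Ccr2 brings monocytes out of the bone marrow into inflamed tissue, Cx3cr1 marks patrolling monocytes and many tissue macrophages, and Cxcr3 and Cxcr6 are carried mainly by activated T cells and NK cells. Fractalkine is made as a membrane-bound protein with a chemokine domain on a stalk and is the ligand of Cx3cr1. Atypical receptors bind chemokines and take them up without signalling through G proteins.

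RNA of whole liver and of white adipose tissue (WAT) was read from WT and CD44KO mice, 5 arrays for each genotype and tissue. All were male C57BL/6 mice, 7 months old, fed a diet with 35% fat (HFD) for 21 weeks, so no group on a normal diet enters these comparisons. The CD44KO mice carry a knockout of the adhesion receptor CD44, and their line had been backcrossed onto C57BL/6J. The comparison asks how the transcripts of these genes differ between CD44KO and WT mice within each tissue. The series describes 5 mice of each genotype, but the labels do not tie liver and WAT of 1 replicate number to the same mouse. Values are log2 signals with the array's 75th percentile subtracted, so that 0 stands for that percentile, and they do not rank genes, since probes differ in how well they bind. A probe entered the test in a tissue if 3 or more of the 5 arrays of either genotype read it well above background, and a difference was called at an adjusted p under 0.05 (limma with Benjamini-Hochberg adjustment over every probe tested).

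Cd44 itself checked the genotypes: its brightest probe averaged 0.48 ± 0.28 (SD, n = 5) in WT and -3.74 ± 0.41 (SD, n = 5) in CD44KO liver, and 4.07 ± 0.37 and -0.51 ± 0.13 in WAT. Summed hepatocyte markers were between 1755 and 2489 times the 75th percentile on the liver arrays, and summed adipocyte markers between 364 and 828 times it on the WAT arrays. Liver arrays resembled each other, with 57.4% to 61.9% of spots well above background. In WAT, WT replicate 1 stood apart with 89.5% of spots well above background against 63.2% to 69.5% on the other 9, and WT replicate 5 stood apart with summed T cell markers of 6.30 times the 75th percentile against 0.395 to 2.04 on the other 9. Liver and WAT lie on different slides read by different scanners, so a difference in level between tissues cannot be told apart from one between slides.

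The probes that carry the comparisons are shown by the first 30 of their 60 bases, as the files give them, with no part in capitals. Both Cx3cr1 probes are shown because they gave unequal differences in liver.

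Cx3cr1 (brighter): caagaatgtcttcatgcattcactgactcc
Cx3cr1 (dimmer): ttcttccccagttgtgacatgaagagggac
Cx3cl1 (brighter): tcccagagcagaatgtgggccgtaacaatc
Ccr2 (brighter): gaagcagggacagaattcttgctttgaaaa
Cxcr3: gccaggcgttgtcagcactgaatgtgccca
Ccrl1 (brighter): atttgtgttacaccgagacccaaccatcaa

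On build mm7, which the files name, the Cx3cr1 probes lie at chr9:119745795-119745854 and chr9:119747387-119747446 on the minus strand, 1592 bases apart. The Cx3cl1 probe lies at chr8:93371329-93371388 on the plus strand, the Ccr2 probe at chr9:123827135-123827194 on the plus strand, the Cxcr3 probe at chrX:97058936-97058995 on the minus strand and the Ccrl1 probe at chr9:103814673-103814732 on the minus strand. The genes of Cx3cr1, Ccrl1, Cxcr6, Ccr1 and Ccr2 all lie on chromosome 9, with the probes of Cxcr6, Ccr1 and Ccr2 at chr9:123530288-123530347, chr9:123681859-123681918 and the position above. No annotation of mm7 was used here, so whether a probe lies in coding sequence or in a UTR is not given.

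In liver, 4 members were lower in CD44KO than in WT: the receptors Cx3cr1, Ccr2 and Cxcr3 and the ligand Cx3cl1, with log2 differences of -2.38, -1.81, -0.61 and -1.28. These are 4 of the 10 member probes tested, from 8 of the 9 genes, and no member probe was called higher. Over all 24689 probes tested in liver, 13.6% were called, 5.75% lower and 7.85% higher. The median difference was -0.53 over the 10 member probes and 0.075 over all probes, and 9 of the 10 were below 0, as were 38.7% of all probes. Before adjustment 7 of the 10 had a p under 0.05 by limma, against 32.2% of all probes. The members were chosen with earlier results of these data known. These shares, and those given below for overlap and for WAT, therefore describe the set and do not test it.

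Cx3cr1, the receptor for fractalkine, had the largest difference of any member probe in liver. The brighter probe read -1.46, -1.87, -2.29, -3.22 and -2.40 on WT replicates 1 to 5, and -5.42, -5.51, -3.33, -4.82 and -4.08 on CD44KO replicates 1 to 5. Every CD44KO array lay below every WT array, with WT replicate 4 and CD44KO replicate 3 nearest to each other, and only CD44KO replicates 3 and 5 were well above background. The mean was 5.22-fold lower in CD44KO (log2 difference -2.38, SE 0.45, limma adjusted p = 0.0156, exact permutation p = 0.0079, the smallest that 5 against 5 arrays can give). Within the slides that hold both genotypes the difference was -1.78, -2.62 and -3.13. The first 2 compare 2 arrays of each genotype, and the last compares 1 of each, with CD44KO replicate 1 not well above background. The values within slides of the other members in liver follow the same order.

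The second Cx3cr1 probe gave a smaller difference. It read -3.79, -3.99, -3.93, -4.20 and -3.68 in WT and -3.82, -4.69, -4.13, -4.25 and -4.47 in CD44KO. The groups overlapped, with CD44KO replicates 1 and 3 among the WT values, and the log2 difference of -0.35 (SE 0.16, limma adjusted p = 0.16) did not pass the test. Both probes carry the same accession, NM_009987, and the files give no reason for their unequal differences.

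Ccr2, the receptor for the monocyte chemokine Ccl2, was also lower. Its brighter probe read -1.27, -1.72, -1.94, -3.05 and -2.39 in WT and -4.15, -4.83, -2.60, -4.50 and -3.34 in CD44KO. The genotypes overlapped at 1 point, where CD44KO replicate 3 lay above WT replicate 4, and CD44KO replicates 2 and 4 were not well above background. The mean was 3.50-fold lower (log2 difference -1.81, SE 0.45, limma adjusted p = 0.0298, exact permutation p = 0.016). The differences within slides were -1.14, -2.28 and -2.22. The call was lost in 7 of the 10 fits that left out 1 array (WT replicate 1, 2, 3 or 5, or CD44KO replicate 1, 2 or 4), with adjusted p up to 0.0716. On none of the liver arrays did the dimmer Ccr2 probe stand well above background.

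Cxcr3, carried by activated T cells and NK cells, had the smallest difference of the called probes and the tightest groups. It read -1.61, -1.94, -1.62, -1.99 and -1.60 in WT and -2.14, -2.41, -2.32, -2.55 and -2.41 in CD44KO. All 5 CD44KO arrays lay below all 5 WT arrays, and every array was well above background. The mean was 1.53-fold lower (log2 difference -0.61, SE 0.11, limma adjusted p = 0.0133, exact permutation p = 0.0079), and the differences within slides were -0.76, -0.52 and -0.52.

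Cx3cl1, fractalkine, was lower together with its receptor. The brighter probe read 0.44, -0.16, -0.17, -0.76 and -0.35 in WT and -1.57, -1.58, -0.84, -2.07 and -1.31 in CD44KO. The groups did not overlap, although WT replicate 4 and CD44KO replicate 3 nearly touched, and every array was well above background. The mean was 2.42-fold lower (log2 difference -1.28, SE 0.25, limma adjusted p = 0.0169, exact permutation p = 0.0079), with -1.13, -1.36 and -1.40 within slides. The dimmer Cx3cl1 probe, designed to another accession, AB030188, was above background only on replicate 2 of each genotype, at -2.06 in WT and -1.89 in CD44KO, and was not tested.

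**Figure D1:**
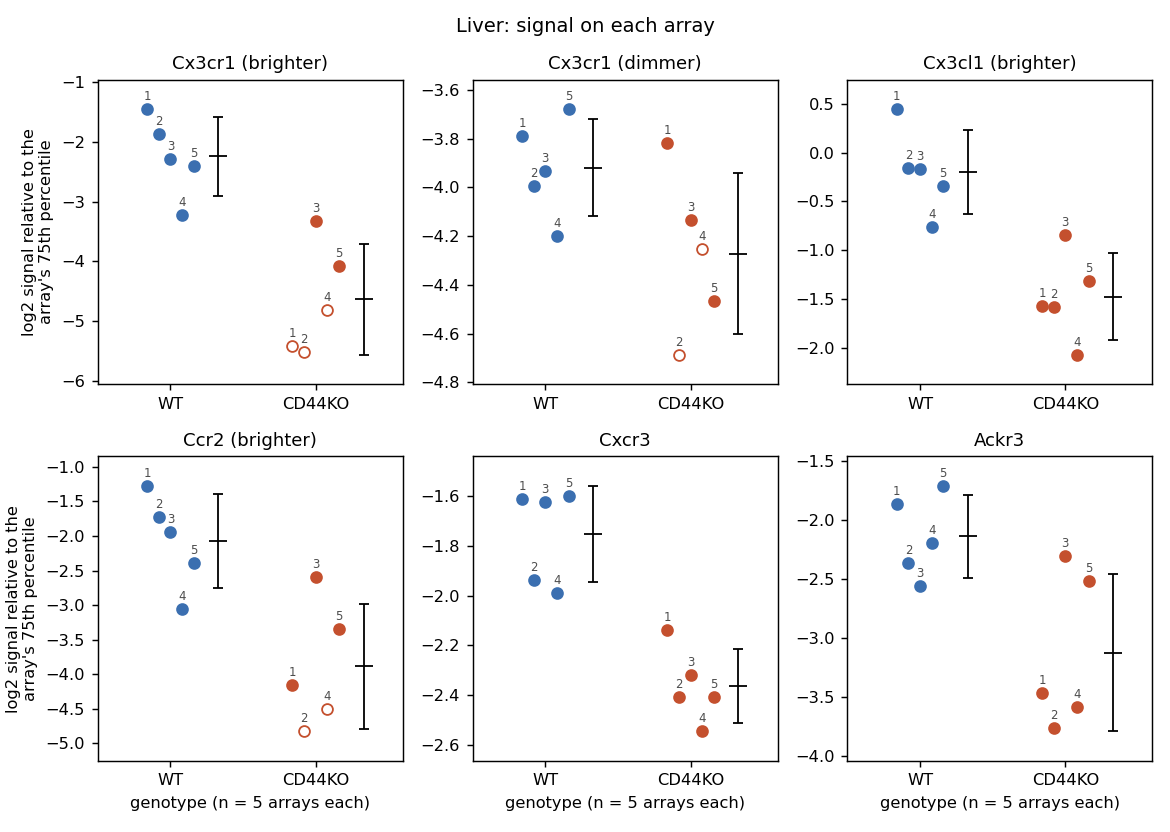
Log2 signal relative to the array's 75th percentile on each liver array, by genotype, for 6 member probes. Points are arrays with their replicate number, open where the probe was not well above background, and the bars are mean and SD of 5 arrays. Cx3cr1 (brighter), Cx3cl1 and Cxcr3 do not overlap between genotypes, Ccr2 overlaps through CD44KO replicate 3 at -2.60, and the dimmer Cx3cr1 probe differs by -0.35.

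With the normexp background correction and an added offset of 50 units in place of the processed signal, only Cx3cl1 kept its call (log2 difference -1.01, limma adjusted p = 0.0371). Adding a constant shrinks the log2 differences of dim probes, and its part was not separated from that of the correction. Under it the differences of Cx3cr1, Ccr2 and Cxcr3 were -0.72, -0.68 and -0.23, with adjusted p of 0.246, 0.275 and 0.446.

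Of the members whose probes did not pass in liver, Ackr3 lay closest to the threshold. Ackr3 is an atypical receptor for Cxcl12. It read -1.87, -2.37, -2.56, -2.20 and -1.71 in WT and -3.47, -3.76, -2.31, -3.58 and -2.52 in CD44KO. CD44KO replicates 3 and 5 lay among the WT values and the other 3 below them (log2 difference -0.99, SE 0.30, limma adjusted p = 0.0552, exact permutation p = 0.04). Within slides the difference was -0.62, -1.39 and -0.91. Ackr3 was called in 4 alternatives, among them the slide as a fixed block (limma adjusted p = 0.00953). It was not called with the normexp background (difference -0.34, limma adjusted p = 0.478) or with no filter (limma adjusted p = 0.111). Without CD44KO replicate 3 the limma adjusted p was 0.018. In the other 9 fits that left out 1 array Ackr3 was not called, with limma adjusted p up to 0.121.

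Ccrl1, the atypical receptor that takes up Ccl19, Ccl21 and Ccl25, was the only one of the 10 member probes tested with a difference above 0 in liver. The brighter probe read -4.38, -3.77, -4.61, -3.68 and -3.81 in WT and -3.56, -3.63, -3.51, -3.46 and -2.70 in CD44KO. All CD44KO arrays lay above all WT arrays, by the narrow gap between WT replicate 4 and CD44KO replicate 2 (log2 difference 0.68, SE 0.23, limma adjusted p = 0.0738, exact permutation p = 0.0079). The differences within slides were 0.99, 0.18 and 1.05. Counting Ccrl1 with Cx3cr1, Cx3cl1 and Cxcr3, 4 of the 10 tested member probes did not overlap between genotypes in liver, 3 lower and 1 higher, against 4.22% and 7.5% of all probes and 11.7% in either direction.

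Cxcr6, the receptor of Cxcl16 on T and NK cells of the liver, read between -2.99 and -2.05 in WT and between -3.12 and -2.53 in CD44KO (log2 difference -0.46, SE 0.19, limma adjusted p = 0.128). The Cxcr4 probes, which read the receptor of Cxcl12, differed by -0.39 (95% interval -1.39 to 0.62) and -0.11 (-0.83 to 0.61), with adjusted p of 0.593 and 0.849 by limma. These intervals are wide, and the Cxcr4 values do not show that the genotypes are alike. Ccr1, a receptor of Ccl3 and Ccl5 on monocytes and neutrophils, stood well above background on 0 of the 20 arrays of both tissues, where its probe read between -8.54 and -5.72, and it is given no fold. The dimmer Ccrl1 probe was above background on 1 liver array of each genotype and was not tested.

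The 4 members called in liver are shown here by the 250 bases before the annotated start in RefSeq (build GRCm38.p6, not the mm7 of the probe positions), because they were lower together. All 9 members had an entry in the table of promoters. Capitals mark matches on either strand to TATAAA (the TATA box core), GAGGAAGT (a core bound by PU.1, a factor of myeloid cells) and CCAAT (the CCAAT box core). These motifs do not overlap each other in the windows printed.

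Cx3cr1, chr9:120068297-120068546, minus strand: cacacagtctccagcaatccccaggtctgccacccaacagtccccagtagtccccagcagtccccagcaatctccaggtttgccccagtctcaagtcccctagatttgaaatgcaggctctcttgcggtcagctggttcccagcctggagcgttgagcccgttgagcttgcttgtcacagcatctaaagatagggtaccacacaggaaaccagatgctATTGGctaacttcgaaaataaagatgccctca
Cx3cl1, chr8:94771930-94772179, plus strand: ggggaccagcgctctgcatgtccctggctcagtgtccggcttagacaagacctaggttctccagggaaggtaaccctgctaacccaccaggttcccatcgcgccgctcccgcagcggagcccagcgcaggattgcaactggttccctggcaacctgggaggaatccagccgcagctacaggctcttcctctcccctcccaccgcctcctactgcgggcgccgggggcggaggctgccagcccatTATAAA
Ccr2, chr9:124101933-124102182, plus strand: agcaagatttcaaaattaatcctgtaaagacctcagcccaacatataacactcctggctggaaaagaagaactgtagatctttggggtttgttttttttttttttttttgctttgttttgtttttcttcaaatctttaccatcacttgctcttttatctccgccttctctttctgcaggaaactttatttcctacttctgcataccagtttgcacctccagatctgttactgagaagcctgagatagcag
Cxcr3, chrX:101734148-101734397, minus strand: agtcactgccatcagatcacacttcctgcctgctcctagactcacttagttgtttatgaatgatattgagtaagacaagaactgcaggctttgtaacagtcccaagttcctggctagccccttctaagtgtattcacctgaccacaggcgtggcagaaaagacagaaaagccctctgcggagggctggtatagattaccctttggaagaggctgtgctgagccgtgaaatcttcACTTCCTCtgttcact

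The windows share none of the 3 motifs. Cx3cl1 alone of the 4 held TATAAA, as the last 6 bases before the annotated start. Of the 32851 RefSeq promoters of this length, 12.4% hold TATAAA at any position. Cxcr3 held GAGGAAGT on the other strand, as 2.44% of promoters do, and Cx3cr1 held CCAAT on the other strand, as 33.8% do, while Ccr2 held none. These matches describe the letters of the windows, and no binding was measured.

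The partners of these receptors were read from a list of 16 chemokine ligands, of which 14 were tested in liver. Of these, 3 were lower in CD44KO, 0 were higher and 11 did not pass, with a median difference of -0.76. Ccl5, a ligand of Ccr1, was lower (log2 difference -2.11, SE 0.37, limma adjusted p = 0.0126), with no overlap between genotypes. Ccl19, a ligand of Ccr7 that Ccrl1 also binds, was lower (log2 difference -1.22, SE 0.18, limma adjusted p = 0.00918), again with no overlap. Cxcl9, a ligand of Cxcr3 induced by interferon gamma, was lower (log2 difference -1.09, SE 0.32, limma adjusted p = 0.0499), and its groups overlapped. Ccl2, the ligand of Ccr2, differed by -2.01 (SE 0.60) with an adjusted p of 0.0505 by limma, just outside the threshold.

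Of 15 other receptors, 10 were tested in liver, with a median difference of -0.22. Ccr7, which guides dendritic cells and T cells to lymph nodes, was lower (log2 difference -1.08, limma adjusted p = 0.0229). Of 21 signalling genes, 19 were tested and 5 were lower. These were the G protein subunits Gnai1 (-0.67), Gng2 (-0.65), Gnai2 (-0.34) and Gnb1 (-0.30), and Adam17 (-0.28), a protease that sheds fractalkine from the membrane, with limma adjusted p between 0.0146 and 0.0387. None of the other receptors or signalling genes was called higher in liver.

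The genes whose values across the 10 liver arrays ran most nearly parallel to the called members were named by Pearson's r, as a description over arrays that include both genotypes. For Cx3cl1 they were Pdgfrb (r = 0.992), Spon2 (0.989) and Pstpip1 (0.985). For Ccr2 they were LOC670046 (0.996), S100a4 (0.995) and S100a11 (0.994), and for Cx3cr1 they were Syt12 (0.993), Sdcbp2 (0.992) and Gpnmb (0.990). For Cxcr3 they were Ablim1 (0.977), Il2rb (0.965) and A430107D22Rik (0.962). Pdgfrb is a receptor of stellate cells and pericytes, Gpnmb is a protein of lipid-laden macrophages, and Il2rb is a chain of the interleukin-2 receptor on T and NK cells.

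Markers of the cells that carry these receptors also differed in liver. Of 6 T cell markers tested, 4 were lower (Cd8a, Cd3d, Cd3g and Lck) while Cd3e and Cd4 differed by 0.12 and 0.20. Cd8a was at least 4.47-fold lower in CD44KO (limma adjusted p = 0.00296), where no array was well above background. The T cell list summed to 1.57 to 2.78 times the 75th percentile in WT and to 1.29 to 1.82 in CD44KO. A sum weighs the brightest gene of its list most, here Cd3e, with a mean of 0.08 in WT and 0.21 in CD44KO. Of 4 NK cell markers tested 3 were lower (Klrd1, Gzma and Prf1), with sums of 0.246 to 0.476 in WT and 0.154 to 0.254 in CD44KO, and no liver array read Ncr1 well above background. Of 3 dendritic cell markers tested, Itgax was lower (log2 difference -2.01), while Flt3 and Zbtb46 differed by 0.26 and 0.50 without passing, so that the list had a median difference of 0.26. Its sums were 0.565 to 2.0 in WT and 0.451 to 0.968 in CD44KO.

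Macrophage lists went different ways. Of 5 macrophage markers tested, 1 was lower (Mpeg1, log2 difference -0.96), and the sums were 24.6 to 37.9 in WT and 16.3 to 35.7 in CD44KO. Of 5 Kupffer cell markers, Timd4 and Marco were higher, with log2 differences of 2.99 and 2.95, and the sums were 28.1 to 82.1 in WT and 70.7 to 188 in CD44KO. In the stellate cell and fibroblast list, Pdgfrb and Dcn were lower, with log2 differences of -0.83 and -0.45, while Lum, Lrat and Des did not pass. The sums of this list were 79.7 to 106 in WT and 57.7 to 74.7 in CD44KO. Most of that signal came from Dcn, with a mean of 6.38 in WT and 5.93 in CD44KO. Of 4 bile duct markers 1 was lower (Sox9), and 0 of 5 endothelial and 0 of 4 B cell markers were called. Of 3 neutrophil markers tested, Csf3r was higher (log2 difference 0.59), while S100a8 and S100a9 differed by -1.02 and -0.96 without passing (limma adjusted p = 0.101 and 0.0729), and the sums were 1.81 to 2.98 in WT and 1.01 to 2.22 in CD44KO. In whole tissue, fewer cells of a type and less RNA of a gene per cell cannot be told apart, and the part of these cell types in the values of the members was not tested.

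**Figure D2:**
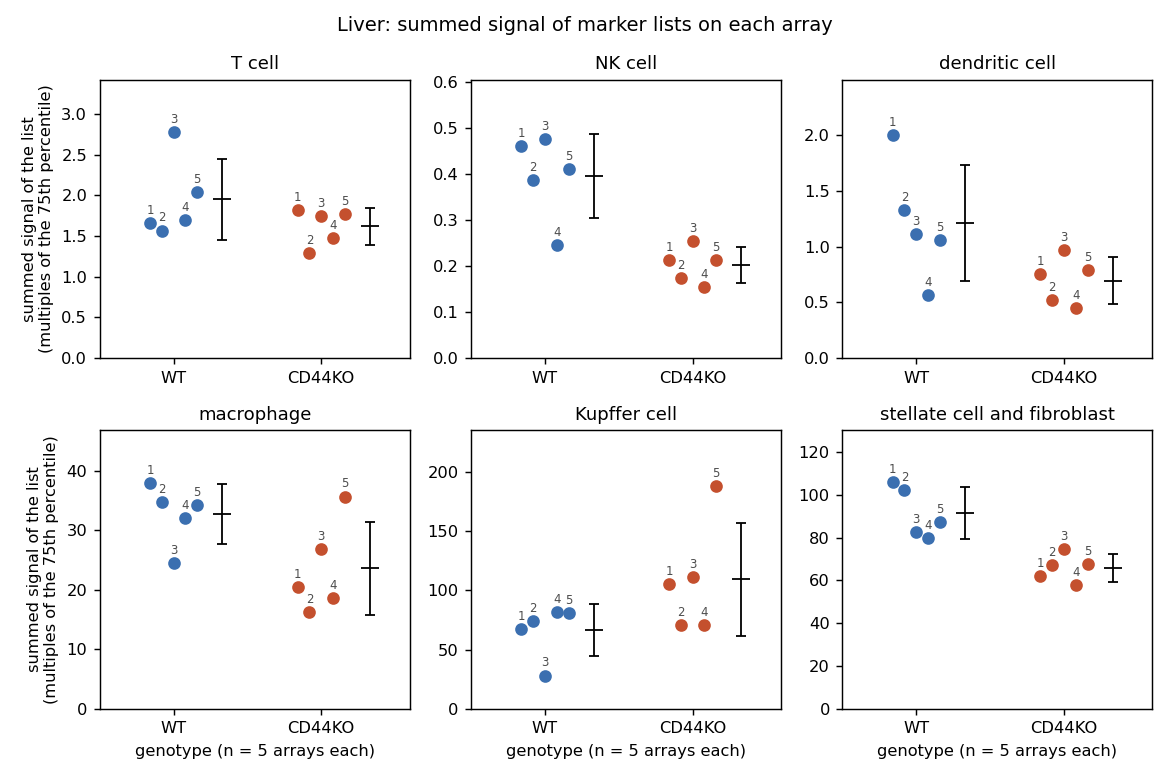
Summed signal of 6 marker lists on each liver array, by genotype, in multiples of the array's 75th percentile, from axes that start at 0. Points are arrays with their replicate number and bars are mean and SD of 5 arrays. The stellate cell and fibroblast sum, most of it from Dcn, separates the genotypes (79.7 to 106 against 57.7 to 74.7). The T cell, NK cell, dendritic cell, macrophage and Kupffer cell sums overlap. Each sum weighs the brightest genes of its list most.

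In WAT, 0 of 11 member probes tested, from 8 genes, passed the threshold, where 11 of 27653 probes did (0.0398%, or 0.0289% lower and 0.0108% higher). Before adjustment 1 of the 11, Ccrl1, had a p under 0.05 by limma, against 14.9% of all probes. The differences lay below 0 for 10 of the 11, as for 55.3% of all probes, with a median of -0.44 over the members and -0.060 over all probes.

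Ccrl1 had the largest difference of the members in WAT, opposite in direction to that in liver. The brighter probe read -2.81, -4.20, -3.39, -4.97 and -3.94 in WT and -6.92, -5.09, -6.75, -5.78 and -5.70 in CD44KO. Every CD44KO array lay below every WT array, with WT replicate 4 and CD44KO replicate 2 nearest, and CD44KO replicates 1 and 3 were not well above background. The mean was 4.55-fold lower (log2 difference -2.19, SE 0.46, limma adjusted p = 0.165, exact permutation p = 0.0079). It was 1 of the 11 tested member probes without overlap lower in CD44KO in WAT, against 2.07% of all probes, and none was higher without overlap, against 4.1% of all probes (6.18% in either direction).

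Leaving out WT replicate 1, the array that stands apart, gave -1.92 for Ccrl1 (limma adjusted p = 0.107), and leaving out WT replicates 1 and 5 gave -1.86 (limma adjusted p = 0.155). Within the slides that hold both genotypes it was -1.50 and -2.90. The latter compares 3 WT arrays with 1 CD44KO array, replicate 3, where the probe was not well above background. CD44KO replicates 1 and 4 lay on a slide without WT arrays, so genotype and slide are partly mixed in WAT. The call appeared in a fit of all 20 arrays (limma adjusted p = 0.00636), where 1817 of 27653 probes were called. It also appeared with array weights (difference -1.53, limma adjusted p = 0.00433), where 5292 of 27653 probes were called. Against these stand the 11 probes called in the fit reported above. The difference was smaller with quantile normalization (-1.19, limma adjusted p = 0.412) and with the normexp background (-1.35, limma adjusted p = 0.0769). The second Ccrl1 probe, to accession AK040316, was above background on 1 of 5 WT arrays (replicate 1, at -3.13) and on no CD44KO array. The WT mean of -6.36 rests on that array, while the medians were -6.99 in WT and -6.74 in CD44KO. The exact permutation p was 0.48, and this probe is given no bound.

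Mesothelial markers were also read in WAT. Their summed signal was 4.62, 6.62, 9.54, 2.03 and 5.20 times the 75th percentile on WT replicates 1 to 5 and 1.01, 0.932, 1.30, 1.24 and 2.99 on CD44KO replicates 1 to 5. The genotypes overlapped in this sum, with CD44KO replicate 5 above WT replicate 4. Within WT the array lowest in Ccrl1, replicate 4, had the lowest sum, whereas within CD44KO the array highest in Ccrl1, replicate 2, had the lowest. All 4 of these markers (Msln, Upk3b, Lrrn4 and Wt1) were tested and 0 passed, with a median difference of -2.24, and their part in the Ccrl1 values was not tested.

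**Figure D3:**
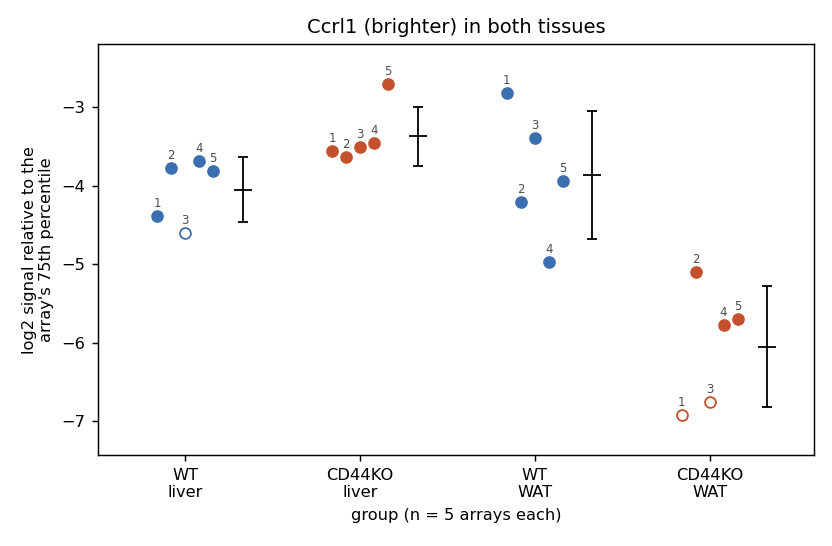
Log2 signal of the brighter Ccrl1 probe relative to the array's 75th percentile on each of the 20 arrays, by genotype and tissue. Points are arrays with their replicate number, open where the probe was not well above background, and bars are mean and SD of 5 arrays. In liver all CD44KO arrays lie above the WT arrays (difference 0.68), and in WAT all lie below them (difference -2.19).

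The other leukocyte receptors tested overlapped between genotypes in WAT, and Ccr1, whose values did not overlap, stood well above background on none of those arrays. Cxcr3 read -0.53, -0.09, -0.66, -0.54 and 1.62 in WT and -1.11, -1.44, -0.41, -0.86 and -0.82 in CD44KO. WT replicate 5 was far above the rest, and the difference of -0.89 (SE 0.42, limma adjusted p = 0.356, exact permutation p = 0.032) was -0.48 without it. Cxcr6 read -2.35, -0.99, -1.81, -2.28 and 0.79 in WT and between -2.57 and -1.80 in CD44KO. The same array was highest, and the difference of -0.93 (SE 0.54, limma adjusted p = 0.433) was -0.40 without it. On that array the B cell markers summed to 7.19 times the 75th percentile against 0.651 to 2.04 on the other 9, beside the T cell sum given above, and the part of these cells in the values was not tested.

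The Cx3cr1 probes differed by -0.87 (95% interval -1.99 to 0.25) and -1.25 (-3.01 to 0.50) in WAT, with limma adjusted p of 0.432 and 0.466. The brighter read -3.21, -3.16, -2.02, -2.72 and -1.89 in WT and -2.36, -3.89, -5.08, -2.76 and -3.23 in CD44KO, with CD44KO replicate 3 lowest and replicates 1 and 4 among the WT values. The dimmer read -1.94 on WT replicate 1 and between -7.07 and -5.69 on the other 9 arrays, and without that array it did not pass the filter for testing. Ccr2 differed by -0.15 (95% interval -0.79 to 0.49) on the brighter probe, between 0.72 and 1.70 in WT and between 0.76 and 2.08 in CD44KO. Its dimmer probe differed by -0.30 (-1.36 to 0.77) and reached -1.03 on WT replicate 1 against at most -2.39 on any other array.

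The Cxcr4 probes gave close differences in WAT, -0.36 (95% interval -0.77 to 0.054) and -0.44 (-0.91 to 0.043), with limma adjusted p of 0.388 and 0.371. In both, all 5 CD44KO arrays lay below the WT mean and the groups overlapped. Ackr3 differed by 0.11 (-0.41 to 0.63), with values of 2.01 to 2.80 in WT and 2.10 to 3.15 in CD44KO. Cx3cl1 differed by -0.14 (-0.59 to 0.31), with values of 1.06 to 1.97 in WT and 1.13 to 1.82 in CD44KO. Its dimmer probe was above background only on WT replicates 1 and 4, at -0.39 and -4.22. The WT mean of -5.77 rests on those arrays, while the medians were -7.58 in WT and -7.15 in CD44KO. The exact permutation p was 0.39, and this probe is given no bound.

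**Figure D4:**
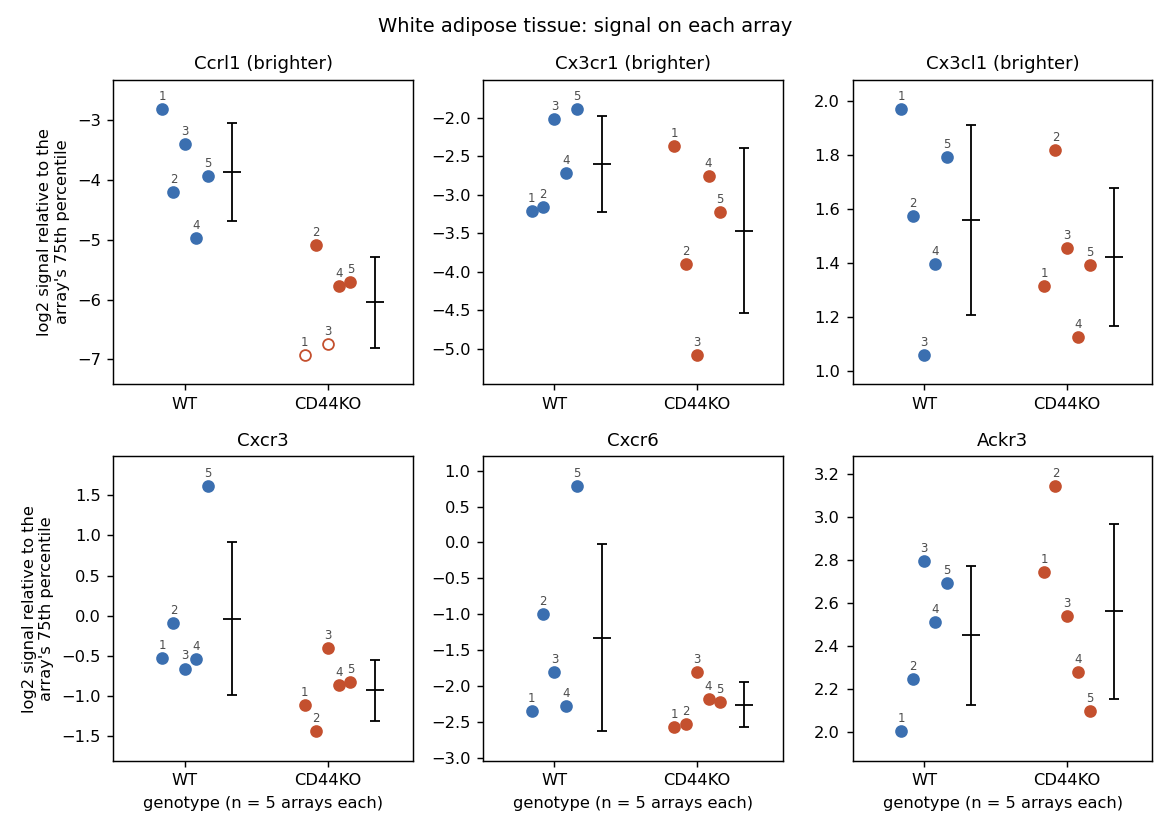
Log2 signal relative to the array's 75th percentile on each WAT array, by genotype, for 6 member probes. Points are arrays with their replicate number, open where the probe was not well above background, and bars are mean and SD of 5 arrays. Ccrl1 (brighter) does not overlap between genotypes, and WT replicate 5 is highest for Cxcr3 (1.62) and Cxcr6 (0.79).

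None of the listed partners passed in WAT. Of 15 ligands, 10 other receptors and 21 signalling genes tested, 0 were called in either direction, with median differences of -0.46, -0.43 and -0.15. Marker lists likewise held 0 calls in WAT, although some of their sums differed between genotypes. Endothelial sums did not overlap, at 9.52 to 18.2 times the 75th percentile in WT and 22.9 to 33.8 in CD44KO. Adipocyte sums were 364 to 579 in WT and 471 to 828 in CD44KO, bile duct list sums 0.682 to 3.71 and 0.486 to 1.08, and macrophage sums 159 to 210 and 111 to 193, all 3 with overlap. The part of these lists in the values of the members, Ackr3 and Cx3cl1 included, was not tested.

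The difference between tissues was tested by itself over 28988 probes, of which 1.15% passed. Among the 11 member probes in that test, Ccrl1 alone passed: its genotype difference in liver exceeded that in WAT by 2.86 on the log2 scale (SE 0.54, limma adjusted p = 0.0201). The fit gave each probe 1 residual spread for both tissues. For Ccrl1 the SD in WT and CD44KO was 0.42 and 0.38 in liver, and 0.82 and 0.77 in WAT. The call did not hold with quantile normalization (1.93, limma adjusted p = 0.183) or with the replicate number as a block (2.86, limma adjusted p = 0.0548). The liver difference minus that in WAT was -1.14 for Cx3cl1 (SE 0.33, limma adjusted p = 0.0979), -1.66 for Ccr2 (SE 0.56, limma adjusted p = 0.15) and -1.52 for Cx3cr1 (SE 0.71, limma adjusted p = 0.31), none past the threshold. For Cxcr3 it was 0.28 (95% interval -0.68 to 1.23). The liver calls of these 4 genes are therefore not shown to be particular to liver.

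**Figure D5:**
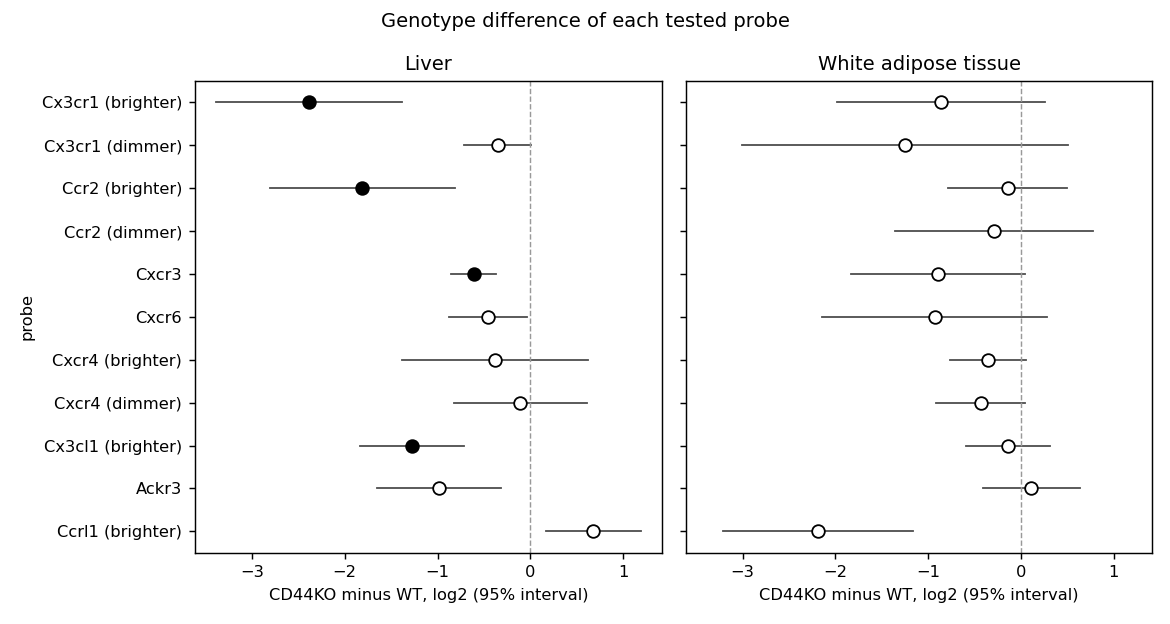
Difference of CD44KO from WT in log2 signal for each member probe tested, in liver and in WAT, with 95% intervals from limma. Filled points passed an adjusted p of 0.05 and open points did not. The filled points are Cx3cr1 (-2.38), Ccr2 (-1.81), Cxcr3 (-0.61) and Cx3cl1 (-1.28) in liver, and Ccrl1 lies on opposite sides of 0 in liver (0.68) and WAT (-2.19).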

How the data were processed

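Liver and WAT RNA of WT and CD44KO mice on the HFD was hybridised to 20 Agilent 1-colour mouse arrays. The authors deposited linear intensity values, the processed signal of each spot, with no scaling between arrays, made with Feature Extraction 9.5.3.1, which per the file headers had subtracted no background. The same signals stand in the deposited table of the whole series, equal on 20 of 20 arrays. Of 45018 spots, 43379 were not controls and read 41174 probes, 22944 of which were matched by accession to a current RefSeq symbol.

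The deposited intensity was put on the log2 scale, outlier spots were left out, the 75th percentile of each array was subtracted and spots of a probe were averaged. That percentile was 433 to 575 in liver and 1541 to 2792 in WAT. With 5 arrays in each group, that number sets how precise a mean can be. Genotypes were compared within each tissue, and between tissues by an interaction term over all arrays, with limma 3.58.1 in R 4.3.3 (statmod 1.5.0), and single probes also by a two-sided exact permutation test. Figures were drawn with matplotlib 3.10.9. A probe with no array of a group well above background (13 times the background's standard deviation) has at most a bound. It was computed against the lowest signal well above background on each array. None is given where the mean of the other group rests on few arrays.

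Every member probe is named, with ligands past the threshold (at most 10 a tissue), other receptors and signalling genes past it (at most 5 a tissue), and the 3 symbols most like each called member. Ccl2 and Ccl7 were named after their values were seen. Lists were read by the brightest probe of a gene. A result of the list of other receptors is not reported here. Members and lists were chosen with earlier results of these data known. The tests were tried on simulated data. Alternatives were the normexp background (offset 50), quantile and median scaling, other filters and all arrays in 1 fit. Further ones were replicate and slide blocks, array weights, outlier spots kept and each array left out.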

Additional observations from a re-analysis of the deposited data

Results flagged for a closer look

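The genotype difference of the brighter Ccrl1 probe in liver exceeded that in WAT by 2.86 on the log2 scale, the only member probe whose difference between tissues passed the test over all probes (limma adjusted p = 0.0201). The call was lost with quantile normalization and with the replicate block. Within WAT alone the Ccrl1 difference of -2.19 did not pass (limma adjusted p = 0.165).

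Among 56 groups of 5 arrays, 8 held 1 array whose gap to the nearest other array was large against the range of its group. Chance gives about 1 in 20 such groups. WT WAT replicate 1 was the highest array for the dimmer probes of Ccr2 (-1.03, next -2.93), Ccrl1 (-3.13, next -6.81) and Cx3cr1 (-1.94, next -5.69). WT WAT replicate 5 was the highest for Cxcr3 (1.62, next -0.09). The dimmer Cx3cl1 probe was highest on replicate 2 of both genotypes in liver, at -2.06 in WT (next -6.26) and -1.89 in CD44KO (next -6.72). CD44KO liver replicate 5 was highest for the brighter Ccrl1 probe (-2.70, next -3.46). WT liver replicate 3 was lowest for the dimmer Cxcr4 probe (-5.84, next -4.64), where it was not well above background.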

How the results depend on the processing

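The 4 liver calls became 1, Cx3cl1, with the normexp background, where 641 of all 24689 probes were called. They numbered 3 to 5 in the other alternatives and, with 1 array left out, 3 to 5. Cx3cl1 kept its call in every alternative run. Cx3cr1 lost its call only with normexp, Cxcr3 with normexp and with all 20 arrays in 1 fit (adjusted p = 0.376), and Ccr2 with normexp, no filter (adjusted p = 0.0651), the replicate block and 7 of the arrays left out. In WAT the count of 0 became 1, Ccrl1, in 2 alternatives, and was 0 with any 1 array left out. The 2 were all 20 arrays in 1 fit, with 1817 of all 27653 probes called, and array weights, with 5292 called. The count of 1 for the difference between tissues became 0 with quantile normalization and 0 with the replicate block. It became 3 with array weights (Ccrl1, Cx3cl1 and Cx3cr1), where 3302 of all 28988 probes were called. With 1 array left out it lay between 1 and 2. It was 2 without CD44KO liver replicate 3, which added Cx3cl1, with 582 of 28908 probes called. An array weight estimate stopped before it converged, so the values with array weights are less certain than the others.

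Same-numbered arrays of the genotypes deviated together with r of -0.04 to 0.42 in liver, over 0.1 in 3 of 5 pairs. In WAT r was -0.21 to 0.09. Some same-numbered arrays also shared a slide: replicates 2, 4 and 5 in liver and replicate 3 in WAT. The part of the slide in these r was not tested, so they do not show whether same-numbered samples share more than a number and a slide. In liver 2 of 5 CD44KO arrays correlated best with their own number, and in WAT 0 of 5. With the replicate block the calls were 3 in liver (Ccr2 left with adjusted p = 0.0522), 0 in WAT and 0 between tissues (Ccrl1 with adjusted p = 0.0548).

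Members that had not passed changed sign as follows. With normexp in liver the difference was 0.16 for the dimmer Cx3cr1 probe and 0.14 and 0.23 for the brighter and dimmer Cxcr4 probes, and the difference between tissues of Cx3cr1 was 0.061. With median scaling in WAT it was 0.33 and 0.19 for the Ccr2 probes, 0.34 for Cx3cl1 and 0.12 and 0.046 for the Cxcr4 probes. With quantile normalization in WAT it was -0.061 for Ackr3 and 0.081 for the brighter Cx3cr1 probe, and with array weights -0.35 for Ackr3 and 0.093 for the dimmer Cx3cr1 probe. Without WT WAT replicates 1 and 5, an alternative added after the data were seen, it was 0.17 for the dimmer Ccr2 probe and 0.077 for Cx3cl1 in WAT, and -0.11 for the difference between tissues of Cxcr3. With 1 array left out the dimmer Cxcr4 probe in liver ranged from -0.41 to 0.059, Ackr3 in WAT from -0.035 to 0.23, the dimmer Ccr2 probe in WAT from -0.48 to 0.14 and the difference between tissues of Cxcr3 from -0.14 to 0.43. The cause of these changes was not tested.

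Over all probes the calls ranged from 641 to 4806 in liver (3358 as reported), from 3 to 5292 in WAT (11) and from 77 to 3302 between tissues (334). The median difference of all probes moved from 0.075 to 0.14 in liver with normexp, and in WAT from -0.060 to 0.42 with median scaling, 0.11 with quantile normalization, -0.13 with normexp and -0.34 with no filter. Probes not well above background on several arrays of a group, as Cx3cr1 and Ccr2 in CD44KO liver, have their low values set by signals near background.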
